A study of Rattus norvegicus with 4 samples.

Results

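Asic2 (ENSRNOG00000058308) encodes a subunit of the acid-sensing ion channels, and its RNA was followed through single nuclei of 2 fat depots of the rat. It is 1 gene of the 32883 in the deposited tables. It was singled out because earlier results of these data had shown it higher in adipocytes of the fat around the thoracic aorta than in adipocytes of brown fat, so it was chosen by its measured UMI counts in these adipocytes, and its level in the tissues is given as a description, with no test. The samples were 2 libraries of thoracic aorta perivascular adipose tissue (taPVAT) and 2 of subscapular brown adipose tissue (BAT) from naïve male Dahl salt-sensitive rats of strain SS/HsdMcwiCrl, aged 16 weeks. Nuclei from about 50 mg of snap-frozen tissue went into a droplet kit that reads the 3′ ends of transcripts. All rats were fed Teklad chow, the labels name no transgene or drug, and they do not say whether a rat gave both tissues.

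Acid-sensing ion channels are trimeric sodium channels of the cell membrane that open when the fluid outside the cell turns acid. They belong to the same superfamily as the epithelial sodium channel. The Asic2 subunit is best known from neurons and has also been studied in vascular smooth muscle and in the sensory endings of the arterial baroreflex. It joins with other subunits of the family and sets how readily the mixed channel opens and closes. Perivascular fat of the thoracic aorta resembles brown fat in its cells, and its adipocytes make the uncoupling protein Ucp1.

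RefSeq annotates 2 starts of Asic2 on the minus strand of rat chromosome 10 (build GRCr8), 802 kb apart, and transcripts from them differ in their first exon. The 250 bases before each start are shown because the nuclei differ in how much Asic2 RNA they hold, while 3′ counts cannot tell which of these starts was used. The distal start lies at the higher coordinate, and its window is chr10:67438238-67438487. The window of the proximal start is chr10:66636062-66636311. Capitals mark 3 promoter motifs on either strand, namely the TATA box searched as TATAAA, the CCAAT box by its own letters, and the GC box searched as GGGCGG.
Distal start: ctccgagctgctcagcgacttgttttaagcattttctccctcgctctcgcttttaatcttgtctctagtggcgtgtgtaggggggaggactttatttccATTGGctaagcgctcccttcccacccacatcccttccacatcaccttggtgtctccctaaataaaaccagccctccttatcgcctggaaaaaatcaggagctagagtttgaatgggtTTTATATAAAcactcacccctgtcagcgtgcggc
Proximal start: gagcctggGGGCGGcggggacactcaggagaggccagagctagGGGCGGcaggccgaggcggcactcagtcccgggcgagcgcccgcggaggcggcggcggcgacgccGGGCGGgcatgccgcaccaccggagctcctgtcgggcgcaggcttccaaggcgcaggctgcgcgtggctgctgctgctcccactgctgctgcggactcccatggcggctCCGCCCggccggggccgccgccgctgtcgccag
The distal window held TATAAA at 2 overlapping places, 1 on each strand, and CCAAT 1 time, on the reverse strand. The proximal window held GGGCGG 4 times, 3 on the strand shown and 1 on the other. Of 33469 windows of this length in the reference table, 12.9% held TATAAA, 34.0% held CCAAT and 30.5% held GGGCGG, all counted on both strands. Neither window held the E-box CACGTG, found in 5.59% of windows, or the cAMP response element TGACGTCA, found in 1.59%. Bases G and C made up 49.6% of the distal and 78.8% of the proximal window, against a median of 51.2% over all windows. These matches describe letters only.

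The tables held 14765 to 44637 barcodes and 63654436 to 158140959 unique molecular identifiers (UMIs, each standing for 1 captured RNA molecule) per library, against a stated target of 10000 nuclei. After filters on genes and doublets 38350 and 11520 nuclei remained for taPVAT replicates 1 and 2 and 28151 and 22695 for BAT replicates 1 and 2. Nuclei were clustered without Asic2, and clusters were named from marker genes as adipocyte-like, mural-like and so on, with the suffix dropped from here on. The larger adipocyte clusters followed the library, so cluster 1 held most adipocytes of taPVAT replicate 1, cluster 4 of taPVAT replicate 2, cluster 0 of BAT replicate 1 and cluster 2 of BAT replicate 2. Between 126 and 424 barcodes occurred in both members of a pair of libraries. Of the BAT adipocytes, 292 and 279 shared their barcode with a nucleus of a taPVAT library, and 2 and 0 of these held Asic2. Levels are given as UMIs of a gene per 1000000 UMIs of the same nuclei (CPM), with exact 95% Poisson intervals, and shares of nuclei with 95% Wilson intervals, which cover counting error only. Ucp1 was found in 24388 of 27999 and 7112 of 9021 taPVAT adipocytes and in 20494 of 21952 and 12595 of 17236 BAT adipocytes, in replicate order.

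Adipocytes of taPVAT held many times more Asic2 RNA than those of BAT, and the taPVAT libraries also differed from each other. In taPVAT replicate 1 the adipocytes held 11273 Asic2 UMIs, or 106.9 CPM (105 to 109). Those of taPVAT replicate 2 held 1336 UMIs, or 27.4 CPM (26.0 to 29.0). In BAT replicates 1 and 2 they held 160 and 120 UMIs, or 1.57 CPM (1.33 to 1.83) and 2.15 CPM (1.78 to 2.57). Both taPVAT libraries lay above both BAT libraries, with no overlap, although the higher taPVAT library was well above the lower. The means were 67.2 ± 56.2 CPM in taPVAT and 1.86 ± 0.411 CPM in BAT (SD, n = 2), a ratio of 36.2. Within replicate number 1 the ratio of taPVAT to BAT was 68.2, and within number 2 it was 12.8.

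The share of adipocyte nuclei with at least 1 Asic2 UMI was likewise higher in both taPVAT libraries. It was 17.9% (17.5% to 18.4%) and 6.92% (6.41% to 7.46%) in taPVAT replicates 1 and 2, and 0.615% (0.520% to 0.727%) and 0.580% (0.477% to 0.705%) in BAT replicates 1 and 2. Depth differed between these libraries, with medians of 3171, 4944, 3884 and 2771 UMIs per adipocyte. When every nucleus was thinned to 2000 UMIs, which left out 5873, 334, 2011 and 3957 shallower nuclei, the shares were 13.3%, 3.63%, 0.292% and 0.351%. Both thinned taPVAT shares were above both BAT shares.

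**Figure D1:**
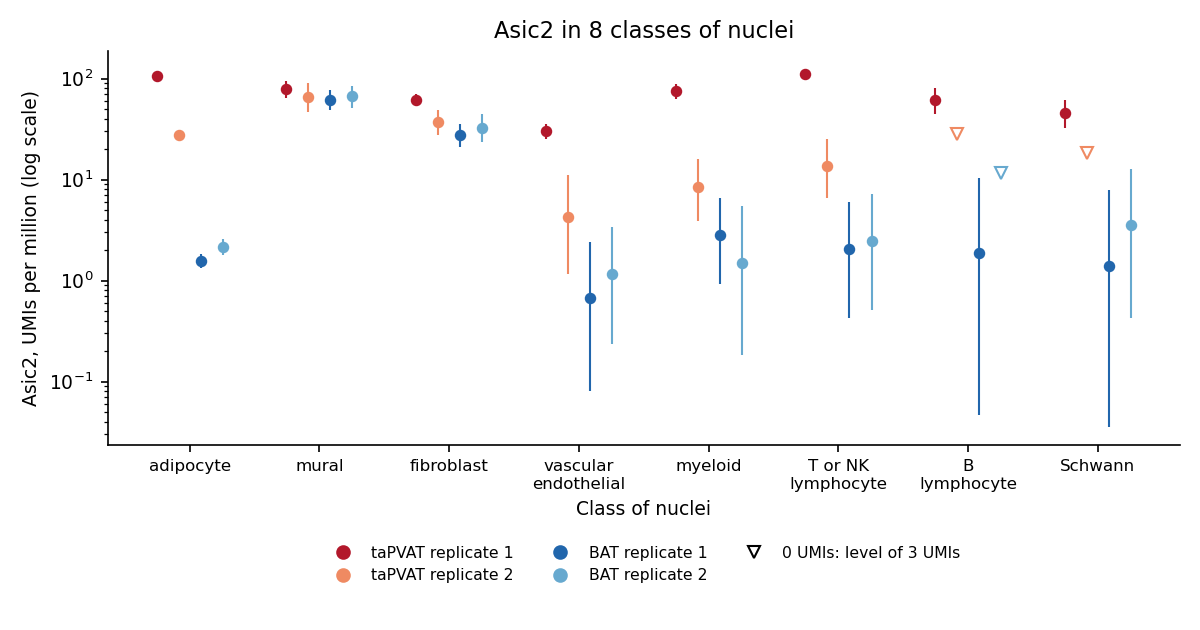
Asic2 level (CPM, log axis) in 8 classes of nuclei, with 1 point per library and exact 95% Poisson intervals; open triangles mark sums with 0 Asic2 UMIs at the level 3 UMIs would give. Adipocytes span from 1.57 CPM in BAT replicate 1 to 106.9 CPM in taPVAT replicate 1, while the 4 mural sums lie between 61.9 and 78.7 CPM.

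Mural nuclei, the pericytes and smooth muscle cells of vessel walls, held Asic2 in both tissues. Their sums gave 78.7 CPM (64.7 to 94.9) and 66.2 CPM (46.8 to 90.8) in taPVAT replicates 1 and 2, and 61.9 CPM (49.1 to 77.1) and 66.7 CPM (51.3 to 85.3) in BAT replicates 1 and 2. The libraries of the tissues overlapped, with means of 72.5 ± 8.86 CPM in taPVAT and 64.3 ± 3.37 CPM in BAT (SD, n = 2). In BAT this was 39.5-fold and 31.0-fold above the adipocytes of the same library. It was 2.41-fold above them in taPVAT replicate 2, while mural nuclei of taPVAT replicate 1 stood at 73.6% of the adipocyte level. So mural nuclei were above adipocytes in 3 libraries and below them in the other.

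The mural class was made of 2 clusters, and both held Asic2. Cluster 13, with the pericyte genes Abcc9, Rgs5 and Pdgfrb among its leading genes, stood at 68.9 and 61.9 CPM in taPVAT and 58.4 and 37.5 CPM in BAT. Cluster 30, with the smooth muscle genes Myh11, Acta2 and Synpo2 among them, measured 100.1 CPM in taPVAT replicate 1 and 66.4 and 120.6 CPM in BAT. It had fewer than 20 nuclei in taPVAT replicate 2 and was not measured there. The intervals of the clusters overlapped in taPVAT replicate 1 (53.3 to 87.7 against 72.8 to 134 CPM) and in BAT replicate 1 (42.1 to 78.9 against 47.0 to 91.2 CPM). In BAT replicate 2 a single nucleus carried 15 of the 40 Asic2 UMIs of cluster 30, so no difference between the clusters is read from that library.

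Fibroblasts measured 61.4 CPM (53.2 to 70.4) and 37.2 CPM (27.6 to 49.2) in taPVAT and 27.5 CPM (21.1 to 35.4) and 32.8 CPM (23.6 to 44.3) in BAT, so taPVAT replicate 1 stood above the rest and the intervals of taPVAT replicate 2 overlapped those of both BAT libraries. Their 2 clusters differed. Cluster 8, led by Lama2, Smpd3 and Col6a2, stood at 24.2 and 51.8 CPM in taPVAT and at 36.8 and 45.3 CPM in BAT. Cluster 17, led by Fbn1 and holding the universal fibroblast marker Pi16 among its leading genes, measured 75.4 CPM in taPVAT replicate 1 but 2.58, 4.67 and 2.66 CPM in the other libraries, from 1 to 3 UMIs each. The fibroblasts of taPVAT replicate 1 held 60.5% of the adipocyte marker level, and the part of adipocyte RNA in these values was not tested. In the other 3 libraries the fibroblast Asic2 came almost wholly from cluster 8, which held 98.0%, 95.1% and 97.6% of its UMIs.

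Adipocyte genes were also counted in nuclei of classes that should lack them, and those levels are given beside Asic2 because they bear on low values. In taPVAT replicate 1 the 5 endothelial, immune and Schwann classes shown in the plot held 30.1 to 110.7 CPM of Asic2, and adipocyte markers stood there at 60.0% to 81.8% of their adipocyte level. These classes held 0 to 13.7 CPM in taPVAT replicate 2, with adipocyte markers at 28.8% to 84.3%. T or NK lymphocytes were the highest of these classes in both libraries, at 104% and 49.9% of the adipocyte Asic2 level and 81.8% and 84.3% of the adipocyte marker level. In BAT replicates 1 and 2 the 5 classes held 0.667 to 2.84 CPM and 0 to 3.56 CPM of Asic2. These levels came from 1 to 5 and from 0 to 3 UMIs per class, and adipocyte markers stood there at 45.6% to 75.1% and 45.0% to 84.9%. The adipocytes lay within the range of these classes in 3 libraries, at 106.9 CPM in taPVAT replicate 1 and 1.57 and 2.15 CPM in BAT, and above it at 27.4 CPM in taPVAT replicate 2. In BAT the adipocytes are thus not shown to hold Asic2 above background, and the ratio of taPVAT to BAT adipocytes has a denominator at that level. That background rests on few UMIs in classes that also held adipocyte markers, so it is known only loosely. In taPVAT replicate 1 only T or NK lymphocytes were as high as the adipocytes as a whole, with an interval of 97.2 to 125.5 CPM. A single T or NK nucleus carried 21 of the 243 Asic2 UMIs of that class. Adipocyte cluster 1, at 135.7 CPM, was above all 5 classes. Some BAT adipocyte clusters also stood above the 5 classes of their library, such as cluster 11 of BAT replicate 2 at 4.44 CPM (2.37 to 7.60). That level came from 13 UMIs and lay inside the interval of the Schwann nuclei of that library, 0.431 to 12.9 CPM. The cluster is thus not shown to exceed background. How much of the Asic2 in these classes is adipocyte RNA was not tested. The share of T or NK nuclei with Asic2 was 13.3% and 4.29% in taPVAT and 0.417% and 0.694% in BAT, at medians of 2146, 1934.5, 1782.5 and 2026 UMIs. Thinned to 1000 UMIs it was 5.82%, 0.698%, 0.256% and 0.183%, beside 7.45%, 2.05%, 0.146% and 0.184% of adipocytes. Mural nuclei of BAT held 45.6% and 39.5% of the adipocyte marker level, while their Asic2 was 39.5-fold and 31.0-fold that of adipocytes. In taPVAT replicates 1 and 2 mural nuclei held 50.4% and 25.3% of the adipocyte marker level and 73.6% and 241% of the adipocyte Asic2 level. For fibroblasts the marker shares were 60.5% and 23.7% in taPVAT and 40.2% and 38.9% in BAT, with Asic2 at 57.4% and 136% of the adipocyte level in taPVAT. The part of adipocyte RNA in the taPVAT mural and fibroblast values was not tested.

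Within the adipocytes Asic2 was patchy. Of 27999 adipocytes of taPVAT replicate 1, 22982 had 0 Asic2 UMIs, 2540 had 1 and 503 had 5 or more, up to 24. Of 9021 adipocytes of taPVAT replicate 2, 8397 had 0, 338 had 1 and 53 had 5 or more, up to 22. Nuclei with 5 or more UMIs were 1.80% and 0.588% of the adipocytes and carried 31.7% and 29.3% of the Asic2 UMIs. In BAT 0 and 1 adipocytes had 5 or more UMIs, and nuclei with 1 UMI carried 71.2% and 73.3% of the Asic2 UMIs. If each nucleus had held Asic2 in proportion to its depth, 8766 and 1222 taPVAT adipocytes would have carried it, while 5017 and 624 did.

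**Figure D2:**
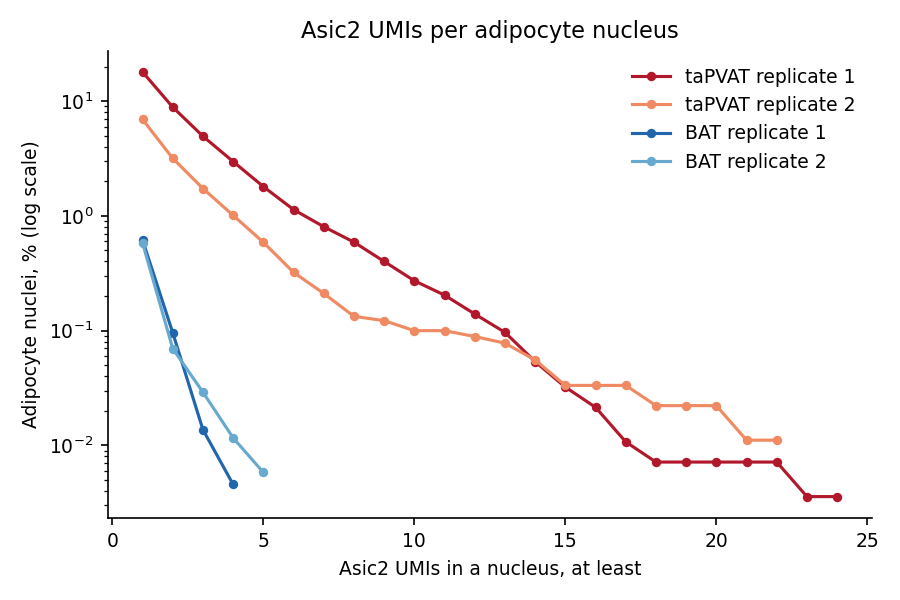
Share of adipocyte nuclei (percent, log axis) with at least a given number of Asic2 UMIs, 1 line per library. The taPVAT lines reach 24 and 22 UMIs and the BAT lines end at 4 and 5.

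Few genes at a like level were as patchy in taPVAT adipocytes. In taPVAT replicate 1 the number of adipocytes with an Asic2 UMI was 0.572 of the number expected from depth, and over 899 genes within 25% of the summed Asic2 count the median of that ratio was 0.956. Only Kcnip1 and Nnat had a lower ratio, and they are named here because their values were seen. In taPVAT replicate 2 the ratio was 0.511 for Asic2, below each of 1255 genes at a like level, whose median was 0.95 and lowest value 0.546. Within the largest adipocyte cluster of each taPVAT library alone, 3983 and 540 nuclei held Asic2 where 6662 and 1074 were expected. In BAT the ratio was 0.848 and 0.837, against medians of 0.982 and 0.983, and 11 of 838 and 10 of 963 genes at a like level were lower.

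Deeper nuclei held more Asic2 per UMI in taPVAT. Adipocytes of taPVAT replicate 1 with under 2000 UMIs measured 62.8 CPM, and those with 2000 to under 4000, 4000 to under 8000 and 8000 or more measured 96.8, 117.5 and 124.8 CPM. The same bins of taPVAT replicate 2 measured 5.89, 15.5, 29.9 and 30.02 CPM, the lowest from 3 UMIs. In BAT the bins ran between 0.949 and 2.82 CPM with no order. Nuclei with less mitochondrial RNA were the higher ones in taPVAT as well: at or below the library median Asic2 stood at 119.3 and 32.1 CPM, and above it at 79.7 and 19.5 CPM. The part of depth and of mitochondrial share in the Asic2 level was not tested.

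**Figure D3:**
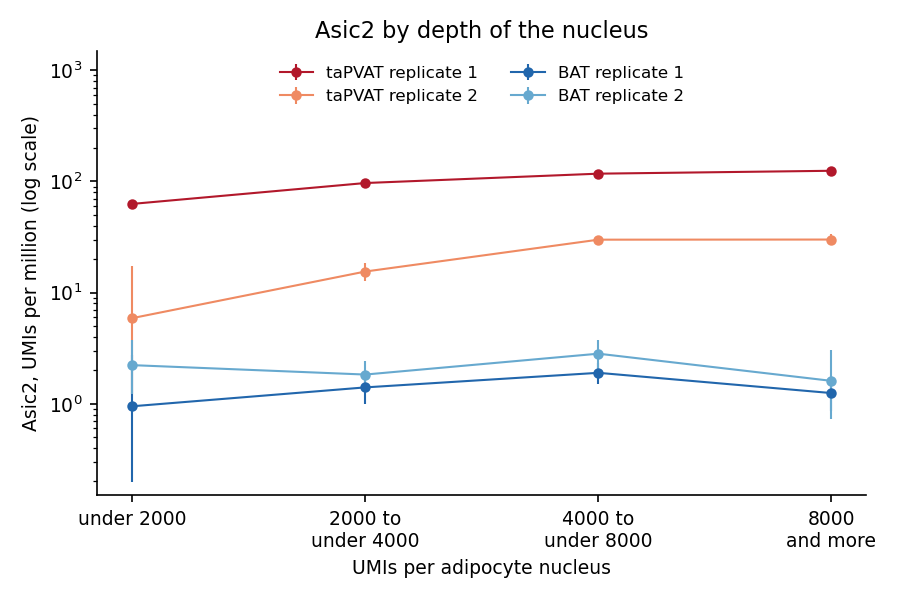
Asic2 level (CPM, log axis) in adipocytes binned by total UMIs of the nucleus, 1 line per library with exact 95% Poisson intervals. The taPVAT lines climb from 62.8 to 124.8 and from 5.89 to 30.02 CPM, and the BAT lines stay between 0.949 and 2.82 CPM.

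Adipocyte clusters within a taPVAT library differed in Asic2 by more than 10-fold. In taPVAT replicate 1, cluster 1 (Nav2, Foxp2 and Tacr1 among its leading genes, after Asic2 itself) measured 135.7 CPM with Asic2 in 27.6% of nuclei, and it held 84.9% of the adipocyte Asic2 UMIs in 51.6% of the adipocytes. Cluster 3, led by Aspg and the fatty acid desaturase gene Scd, measured 56.2 CPM with 8.40% of nuclei. Cluster 5, led by Kcnip1, a modulator of potassium channels, measured 11.1 CPM with 2.02% of nuclei, below the 30.1 CPM of vascular endothelial nuclei in that library. In taPVAT replicate 2, cluster 4 measured 32.7 CPM with 8.65% of nuclei, cluster 2 measured 8.02 CPM and cluster 11, with Clmp and Kcnip1 in the lead, 2.21 CPM from 4 UMIs. Among clusters with at least 200 nuclei of the library, each taPVAT library thus had its highest level in its largest cluster and its lowest in a cluster led by Kcnip1 or Clmp. Cluster 10, also led by Kcnip1, was not low, at 64.6 CPM with 13.5% of nuclei in taPVAT replicate 1, and cluster 27 of taPVAT replicate 2 measured 33.8 CPM in 91 nuclei, 1 of which held 13 of its 27 Asic2 UMIs. A cluster held mostly by 1 library may be that library and not a type. Since Asic2 helped neither to form nor to name these clusters, but other genes of the same nuclei did, these differences are descriptions.

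**Figure D4:**
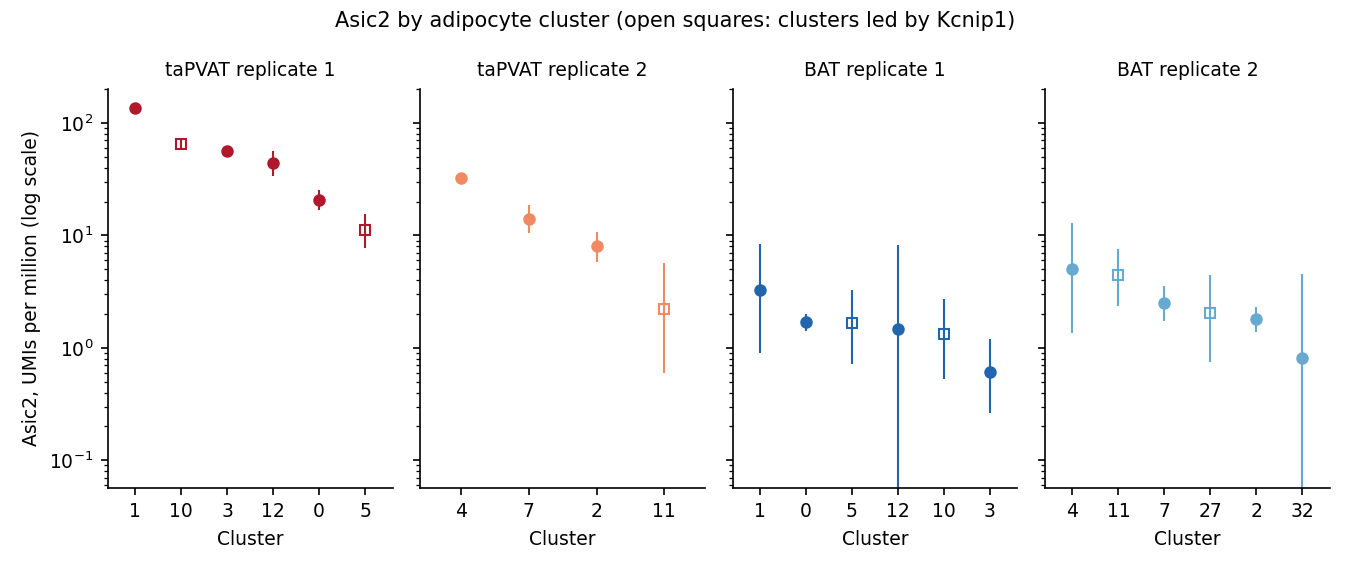
Asic2 level (CPM, log axis) in adipocyte clusters with at least 200 nuclei of the library, with exact 95% Poisson intervals; open squares are clusters with Kcnip1 among their leading 2 genes. In taPVAT replicate 1 the levels run from 135.7 CPM in cluster 1 to 11.1 CPM in cluster 5, and in taPVAT replicate 2 from 32.7 CPM in cluster 4 to 2.21 CPM in cluster 11.

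Splits by single genes of adipocyte subtypes gave the same order of Asic2 levels in both taPVAT libraries. Adipocytes with a Kcnip1 UMI measured 72.1 and 13.3 CPM of Asic2, against 110.6 and 28.6 CPM in those without. For Tshr, the thyrotropin receptor, the levels were 97.9 and 19.3 CPM against 109 and 30.02 CPM, and for Ca3, a carbonic anhydrase of fat and muscle, 91.3 and 23.7 CPM against 114.8 and 28.5 CPM. The share of nuclei with Asic2 ran the other way for Tshr in replicate 1, at 18.5% with a Tshr UMI and 17.8% without. For Ucp1 the levels were 108 and 27.5 CPM with a UMI against 94.3 and 27.3 CPM without. In replicate 1 the intervals did not overlap (106 to 110 against 87.8 to 101 CPM), while in replicate 2 they did. Nuclei with a Ucp1 UMI were deeper, with medians of 3381 and 5173 UMIs against 2074 and 4166, and the part of depth was not tested. The 4 clusters with Kcnip1 in the lead stood as a group at 47.5 and 13.4 CPM in taPVAT, against 113.1 and 28.3 CPM in the other adipocyte clusters.

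Next, taPVAT adipocytes in which at least 1 Asic2 UMI was counted, called positive here, were compared with adipocytes of the same library in which none was, called negative and matched for depth as far as nuclei allowed. A counted UMI does not show that the nucleus made the RNA. In replicate 1 the adipocyte level lay within the range of the other classes, whose top was the T or NK class. A single T or NK nucleus carried 21 of the 243 Asic2 UMIs of that class. T or NK nuclei had Asic2 in 5.82% at 1000 UMIs, beside 7.45% of adipocytes. In replicate 2 these shares were 0.698% and 2.05%. Of the positive nuclei 2540 of 5017 and 338 of 624 had a single UMI, and how many of them held only free RNA was not tested. With at least 2 Asic2 UMIs required, 157 genes were called by edgeR. The sums held 5017 positive and 15051 negative nuclei in taPVAT replicate 1 and 624 and 1872 in replicate 2. In replicate 1 deep negative nuclei ran out, and the median depth was 4303 UMIs in positive and 3830 UMIs in negative nuclei, while in replicate 2 it was 5932 and 5931.5 UMIs. The median mitochondrial share was 5.47% in positive and 6.14% in negative nuclei of replicate 1, and 5.28% and 5.32% in replicate 2. With 1 negative nucleus per positive, replicate 1 had medians of 4303 and 4304 UMIs and of 5.47% and 5.63% mitochondrial RNA, and 132 genes were called by edgeR. The part of these differences in the calls was not tested. The quasi-likelihood test of edgeR, with the library as a term, called 256 of 12746 genes at an adjusted p of 0.05, which is 2.01%. Of these 116 were higher (0.91%) and 140 lower (1.1%) in positive nuclei. The median log2 fold change over all genes tested was -0.01. With DESeq2 38 genes were called, and within the largest adipocyte cluster of each library 34 of 12455 were (0.273%), 33 of them among the 256. In cluster 1 of taPVAT replicate 1 this took all 10473 negative nuclei, so depth was not matched there, with medians of 4812 UMIs in positive and 4143 in negative nuclei. With 1 negative nucleus per positive the medians in that cluster were 4812 and 4811 UMIs, and 64 of 12071 genes were called within the largest clusters (0.53%), 59 of them among the 256. This matched setting was added after seeing the data. The largest clusters held 3983 of the 5017 and 540 of the 624 positive nuclei. The overlaps with the 256 genes thus come largely from the same nuclei and are no independent evidence. The test has 1 residual degree of freedom and rests on the spread pooled over genes.

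Among genes found in at least 2% of adipocytes of both taPVAT libraries, the 15 that were highest in Asic2-positive nuclei by the smaller of the library ratios were Zfp385d, Samd4a, Dclk2, Ush1c, Syt1, Vat1l, Snx10, Hspa4l, Ip6k3, Abcb11, Nav2, AABR07035437.1, Usp18, Npas2 and Man1a1, and each passed the edgeR test. Zfp385d, a zinc finger gene, measured 241.4 CPM in positive and 159.8 CPM in negative nuclei of taPVAT replicate 1, and 111 and 68.0 CPM in replicate 2. Its edgeR log2 fold change was 0.62 ± 0.05 (SE), with an adjusted p of 2.2e-15. Syt1, which encodes the calcium sensor synaptotagmin of vesicle release, measured 105.4 against 74.1 CPM and 51.2 against 34.7 CPM, at 0.52 ± 0.06 and an edgeR adjusted p of 3.4e-09. Samd4a, an RNA-binding repressor of translation, stood at 0.56 ± 0.05 (edgeR adjusted p 4.0e-12), and Man1a1, a mannosidase of glycoprotein processing, at 0.50 ± 0.05 (2.6e-12). Npas2, a clock transcription factor, stood at 0.35 ± 0.07 (edgeR adjusted p 1.7e-04). The changes were modest, from 0.35 to 0.62 on the log2 scale, and within the largest cluster of each library 11 of the 15 passed unmatched and 12 with 1 negative nucleus per positive. Nav2, Snx10, AABR07035437.1 and Syt1 are among the leading genes of cluster 1, which held 84.9% of the adipocyte Asic2 UMIs of taPVAT replicate 1. Within the largest clusters, unmatched, Nav2 and Syt1 passed, while Snx10 and AABR07035437.1 did not (edgeR adjusted p 0.18 and 0.26). With DESeq2 Ush1c, Snx10, Ip6k3, Abcb11, AABR07035437.1, Usp18 and Npas2 did not pass. Ip6k3 and Abcb11 also lost the edgeR call with 1 negative nucleus per positive (adjusted p 0.12 and 0.15), with at least 2 Asic2 UMIs (0.60 and 0.56) and with gated adipocytes (0.075 and 0.054).

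The genes named as lower in Asic2-positive nuclei changed by more than those named as higher, which does not hold for every called gene. The 8 named by the same rule were Kcnip1, Anxa1, Astn2, Rasa3, Rcan2, Fos, Kcnn3 and Abi3bp. Kcnip1 measured 52.3 CPM in positive and 133 CPM in negative nuclei of taPVAT replicate 1, and 29.2 and 61.5 CPM in replicate 2, an edgeR log2 fold change of -1.30 ± 0.07 with an adjusted p of 1.2e-25. Anxa1, which encodes the phospholipid-binding annexin A1, measured 31.2 against 78.9 CPM and 4.27 against 8.76 CPM, at -1.33 ± 0.08 (edgeR adjusted p 4.1e-21). Kcnn3, a calcium-activated potassium channel, stood at -1.06 ± 0.10 (edgeR adjusted p 2.5e-12). Fos, an immediate early gene, stood at -1.04 ± 0.11 (edgeR adjusted p 2.1e-11). Of these 8 genes 0 passed within the largest cluster of each library, where Kcnip1 was at -0.13 with an edgeR adjusted p of 0.98 and Rcan2, an inhibitor of calcineurin, at -0.64 with 0.059. With 1 negative nucleus per positive Rcan2 passed there, at -0.75 and an edgeR adjusted p of 0.0064, while Anxa1 and Fos stood at 0.069 and 0.087 (edgeR adjusted p 0.999 for both). Kcnip1, Anxa1, Kcnn3 and Astn2 are among the leading genes of clusters 5 and 10, and Fos of cluster 10, which measured 11.1 and 64.6 CPM of Asic2 in taPVAT replicate 1.

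**Figure D5:**
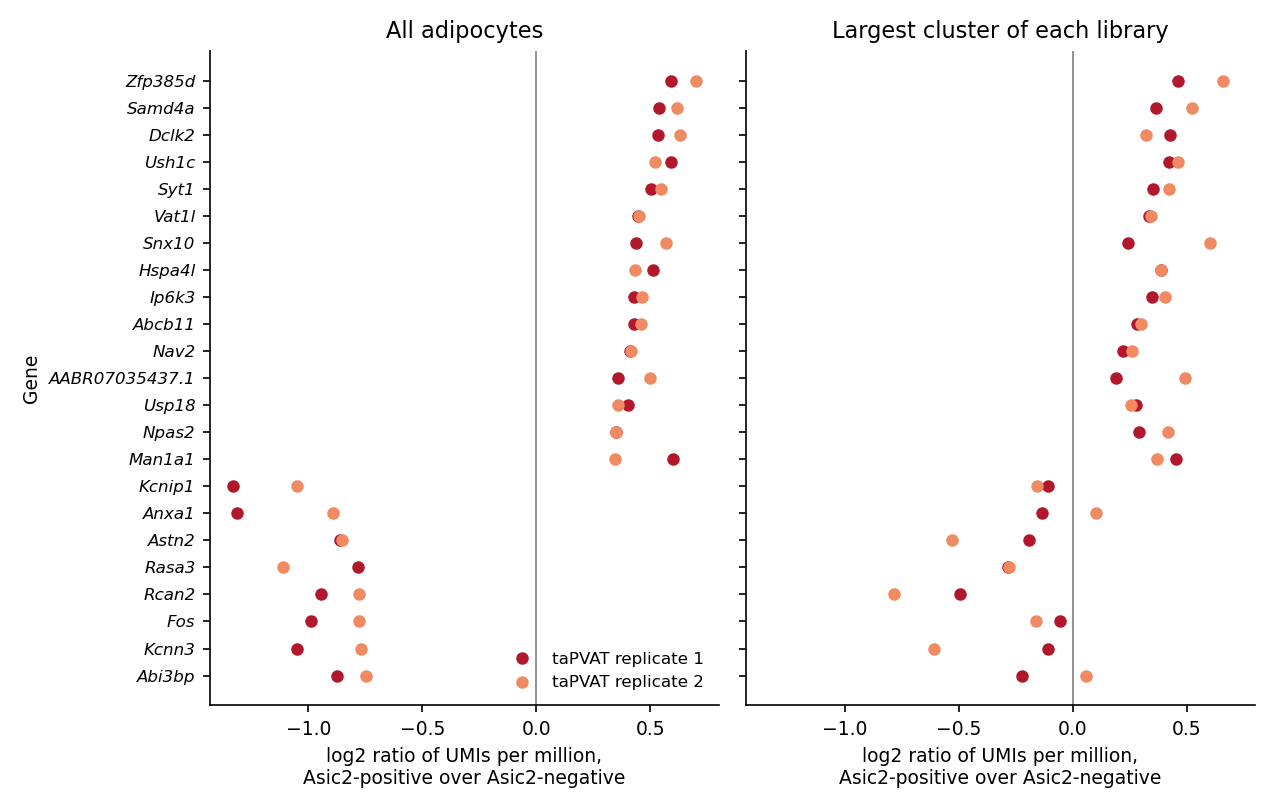
Log2 ratio of CPM in Asic2-positive over Asic2-negative adipocytes for the 23 genes named by the rule, 1 point per taPVAT library, with all adipocytes on the left and the largest cluster of each library on the right, where the negative nuclei of taPVAT replicate 1 are not depth-matched. The 15 higher genes lie right of 0 in both panels, on the left because the naming rule required it. The right panel holds 3983 of the 5017 and 540 of the 624 positive nuclei of the left panel, so it is not independent of it. Of the 8 lower genes Kcnip1 stands at -0.11 and -0.16 in the right panel, and Anxa1 and Abi3bp lie at 0.11 and 0.06 there in taPVAT replicate 2.

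Of 11 genes of de novo lipogenesis, the making of fatty acids from sugar carbon, 4 were higher in positive nuclei and 0 lower, beside 0.91% of all genes higher, and the list median was a log2 fold change of 0.14. Pnpla3, a lipid-droplet enzyme induced by sterol regulatory factors, rose by 0.34 ± 0.04 (edgeR adjusted p 2.4e-08), with log2 ratios of 0.38 and 0.28 in the libraries, and it also passed within the largest clusters. It is among the leading genes of cluster 1. Acly, which makes cytosolic acetyl-CoA, rose by 0.24 ± 0.04 (4.5e-05), Me1, a source of NADPH, by 0.24 ± 0.04 (2.9e-05), and Acaca, the acetyl-CoA carboxylase of fatty acid synthesis, by 0.21 ± 0.04 (5.8e-04), all by edgeR. Within the largest clusters Acly, Me1 and Acaca did not pass unmatched, at edgeR adjusted p-values of 0.10, 0.14 and 0.53. They passed there with 1 negative nucleus per positive, at 0.20, 0.17 and 0.12 on the log2 scale (edgeR adjusted p 3.1e-07, 5.4e-04 and 0.0050). With DESeq2 Acly and Acaca did not pass. Fasn, fatty acid synthase, was at 0.14 with an edgeR adjusted p of 0.061, and Scd at -0.12 with 0.42.

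Of 14 thermogenic genes tested 0 were higher and 2 lower, beside 1.1% of all genes lower, and the list median was -0.05. Ucp1 fell by 0.17 on the log2 scale, with log2 ratios of -0.10 and -0.26 in the libraries (edgeR adjusted p 0.014), and Cox8b, a subunit of cytochrome oxidase, fell by 0.16 (0.040). Both calls ended when 1 negative nucleus was taken per positive, at edgeR adjusted p-values of 0.056 and 0.78. All 3 subtype genes were lower in positive nuclei, Kcnip1 as given above, Ca3 by 0.92 ± 0.06 (edgeR adjusted p 4.1e-21) and Tshr by 0.49 ± 0.06 (3.5e-09). These 3 had marked an adipocyte subtype in earlier results of the same data and are no independent evidence of a direction. Within the largest clusters Ca3 and Tshr were at -0.26 and -0.10, with edgeR adjusted p-values of 0.16 and 0.94.

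Markers of other cell types were compared between the same sums. The summed level of each of 10 marker lists in positive nuclei was 0.845 to 1.23 times that in negative nuclei in taPVAT replicate 1 and 0.637 to 1.17 times in replicate 2. In positive and negative nuclei of replicate 1 the B lymphocyte list stood at 7144 and 7236 CPM and the Schwann list at 1204 and 1276 CPM. In replicate 2 the lymphatic endothelial list stood at 5.69 and 8.92 CPM and the T or NK list at 3.56 and 5.06 CPM. Ratios of lists that high or low in adipocytes cannot tell how much RNA of those cell types was present. For the mural list, whose cells carry Asic2, the ratios were 0.978 and 1.06, and for the fibroblast list 0.845 and 1.04. For the adipocyte list they were 0.964 and 0.984.

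The difference between Asic2-positive and Asic2-negative nuclei was then compared between the tissues by an interaction term. In BAT the positive nuclei were few, 135 and 100, at an Asic2 level not shown to exceed background, so there they are nuclei in which a UMI was counted and no more. In BAT replicate 2 they held 1.80 times the fibroblast and 1.67 times the mural marker level of the negative nuclei. The same ratios were 0.832 and 1.12 in BAT replicate 1. Over all 10 marker lists of other cell types they ran from 0.375 to 1.28 in BAT replicate 1 and from 0.231 to 1.80 in replicate 2. The edgeR test called 18 of 10206 genes (0.176%), of which 14 fell more, or rose less, with Asic2 in taPVAT than in BAT and 4 the other way. Among them were Kcnip1, Ca3, Tshr, Rcan2, Zfp385d and Syt1. For Kcnip1 the log2 ratios were -1.33 and -1.05 in taPVAT and 0.16 and -0.66 in BAT, an interaction of -1.13 ± 0.16 (edgeR adjusted p 4.4e-05). For Zfp385d they were 0.59 and 0.70 against -1.10 and -0.46, an interaction of 1.68 ± 0.28 (edgeR adjusted p 0.0012). That interaction turned to -0.77 (edgeR adjusted p 0.020) when adipocytes were gated per nucleus. In BAT replicate 2 Zfp385d was found in 4% of the positive nuclei, at 8.58 CPM against 12.2 CPM in negative nuclei. Syt1 was found in 3% of them, at 6.43 against 17.2 CPM, so these BAT ratios rest on few UMIs. Esr1, the oestrogen receptor gene, had the smallest adjusted p and is named for that after its values were seen. Its log2 ratios were -0.69 and -0.71 in taPVAT and 0.39 and 0.71 in BAT (edgeR adjusted p 4.5e-07). The Ca3 interaction of -1.13 turned to 0.25 (edgeR adjusted p 0.98) within the largest clusters, and it and Kcnip1 turned to 1.90 and 2.18 with at least 2 Asic2 UMIs, where BAT had 21 and 12 positive nuclei (edgeR adjusted p 0.14 and 0.43). The count of genes was 6 by DESeq2, 40 without BAT replicate 2 and 205 with adipocytes gated per nucleus.

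The other acid-sensing channel genes had few UMIs in adipocytes of either tissue. Asic1, a main proton sensor of neurons, measured 1.09 and 1.36 CPM in taPVAT and 0.715 and 0.967 CPM in BAT, with an edgeR log2 fold change of 0.58 ± 0.42 and an adjusted p of 1. Asic3, known from sensory neurons, measured 0.332, 0.226, 0.274 and 0.251 CPM in the same order of libraries. Asic5, a subunit known from bile acid sensing, measured 0.294 and 0.144 CPM against 0.0588 and 0.0895 CPM, from 5 to 31 UMIs, and its edgeR p was 0.042 before and 1 after adjustment. Asic4 measured 0.0205 to 0.143 CPM in adipocytes and 2.32 to 6.97 CPM in mural nuclei, the latter from 3 to 6 UMIs. The epithelial sodium channel genes Scnn1a and Scnn1b lay between 0.251 and 0.823 CPM, and Scnn1g had 0 to 2 UMIs. In Asic2-positive against Asic2-negative nuclei Asic1 was tested, at 0.53 ± 0.33 on the log2 scale and an edgeR adjusted p of 0.74.

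Between the tissues 0 of 15471 adipocyte genes (0%) passed the edgeR test. Before adjustment 352 had a p under 0.05, and by DESeq2 55 genes passed. On simulated data the edgeR test recovered 2.00% of changes of log2 size 1 and 44.4% of size 2. A gene that did not pass is thus not shown to be alike in the tissues. The labels number the replicates but give no day or batch, and the p-values measure the spread between these libraries. Of proteins known to bind or regulate acid-sensing channels 11 were tested, with a median log2 fold change of 0.00 and 0 with an unadjusted p under 0.05, beside a median of 0.01 over all genes. Pick1, a scaffold that binds the channel tail, measured 23.9 and 23.2 CPM in taPVAT and 21.7 and 21.6 CPM in BAT adipocytes. Stom, a membrane protein that damps channel opening, measured 75.6 and 37.0 against 85.6 and 39.3 CPM.

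Of 13 voltage-gated sodium and calcium channel genes tested 4 had an unadjusted edgeR p under 0.05, all higher in taPVAT, and the list median was 0.37, beside 352 of 15471 and 0.01 over all genes. Cacna1c, the pore of the L-type calcium channel, measured 4.26 and 4.07 CPM in taPVAT and 0.960 and 1.18 CPM in BAT adipocytes. On the log2 scale it was higher by 1.99 ± 0.36, at an adjusted p of 0.91 by edgeR and 0.00325 by DESeq2. It measured 364 to 578 CPM in mural nuclei, and how much of the adipocyte value came from mural RNA was not tested. Cacna2d3 and Cacnb2, auxiliary subunits of calcium channels, had log2 fold changes of 0.95 ± 0.25 and 1.13 ± 0.30, both at an edgeR adjusted p of 1. Cacna2d3 measured 57.0 to 186.4 CPM in fibroblasts, beside 25.1 to 53.3 CPM in adipocytes. Cacnb2 measured 90.6 to 386.3 CPM in mural nuclei, beside 5.62 to 12.9 CPM in adipocytes. How much of these adipocyte values came from RNA of the other classes was not tested. Slc4a8, a sodium-driven bicarbonate exchanger, measured 9.46 and 5.63 CPM against 2.99 and 1.45 CPM, and its log2 fold change was 1.80 ± 0.47 (edgeR adjusted p 1). It was the single gene of 23 acid, bicarbonate and lactate genes tested with an unadjusted edgeR p under 0.05. Of 11 lipogenic genes 2, Acaca and Me1, had an unadjusted edgeR p under 0.05, with log2 fold changes of 1.11 and 1.02, and the list median was 0.84. Of 15 thermogenic genes 0 did, and their median was -0.05.

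The same lists were counted between Asic2-positive and Asic2-negative nuclei, where 2.01% of all genes were called. Of the 8 channel partners tested and the 10 voltage-gated channels tested 0 were called, which lists of this size cannot set apart from that share. Of 21 acid, bicarbonate and lactate genes tested 1 was called, Ca3, and of 4 other acid-gated membrane proteins tested 1 was, the proton-activated chloride channel gene Pacc1, which fell by 0.31 ± 0.09 (edgeR adjusted p 0.038). The Pacc1 call ended with 1 negative nucleus per positive, at an edgeR adjusted p of 0.45. Of 8 sodium pump and exchanger genes tested 1 was called, the sodium-calcium exchanger gene Slc8a1, which fell by 0.61 ± 0.15 (edgeR adjusted p 0.012). Its log2 ratios were -0.56 and -0.21 in the libraries, and with 1 negative nucleus per positive its edgeR adjusted p was 0.64. Neither Pacc1 nor Slc8a1 passed with DESeq2 or within the largest clusters.

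Across 32 sums of 4 libraries and 8 classes the gene most like Asic2, among 12310 compared, was Slit3, with a Pearson r of 0.85 between log2(CPM + 1) values. Slit3 encodes a secreted guidance ligand. It measured 128.1 and 80.4 CPM in taPVAT and 68.9 and 27.02 CPM in BAT adipocytes, and 172.4 to 321.3 CPM in mural nuclei. Next were Zfp385d at 0.78, Btbd19 at 0.76, Slc4a8 at 0.75, Meis2 and Frk at 0.73, Slc9b1 and Adamts18 at 0.72, LOC108348048 at 0.71 and Eya1 at 0.70. Zfp385d measured 966.7 to 1585 CPM in mural nuclei and is the same gene that led the list of genes higher in Asic2-positive adipocytes. Eya1, a developmental transcription cofactor, measured 15.4 and 3.78 CPM in taPVAT adipocytes and 0.0980 and 0.107 CPM in BAT adipocytes. The points share libraries and depth, and adipocyte genes are counted in every class, so these values are descriptions.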

How the data were processed

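The deposited tables hold raw UMI counts per gene and barcode, 1 library each, made with Cell Ranger 7.1.0 per the file headers, on genome build Rnor_6.0 per the submitters' processing notes. For the annotation release, the use of introns and the barcode filter the sources used here give nothing. Asic2 and the gene lists were chosen with earlier results of these data known.

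Nuclei with at least 500 detected genes were kept. Scrublet (scanpy 1.11.5) marked doublets, which were removed. It called 0 of 34553 nuclei in BAT replicate 1, so the 6402 highest scores were removed there, the same fraction of the expected number (0.670) as the median of the other libraries. Nuclei were clustered over 3000 variable genes without Asic2 (30 components, 15 neighbours, leidenalg 0.10.2 at resolution 1) into 38 clusters, named from the mean relative level of marker lists. The naming thresholds were set after seeing the data. Gating each nucleus on at least 3 adipocyte marker UMIs was the alternative. Lists for mast, neuron, skeletal muscle and proliferating cells had under 5 usable markers. Nuclei were thinned by the hypergeometric chance of at least 1 UMI.

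Counts were summed per library and tested with edgeR 4.0.16 (R 4.3.3; quasi-likelihood, TMM, filterByExpr, Benjamini-Hochberg, threshold 0.05), with DESeq2 1.42.0 as an alternative. Asic2-positive adipocytes (at least 1 UMI) were set against 3 depth-matched negative adipocytes each, with library as a term. Named genes were the 15 highest and 8 lowest in both taPVAT libraries among genes in at least 2% of adipocytes. On simulated data of log2 size 1 and 2 the tissue test recovered 2.00% and 44.4% of changed genes, the test of Asic2 status 88.7% and 98.0%, and the interaction 45.2% and 74.2%. False calls were 3, 9 and 1 genes in the same order of tests. The genes named as higher by Asic2 status changed by 0.35 to 0.62, below either size, and recovery of such changes was not simulated. Other alternatives were the filters on nuclei and low counts, thinning depth, doublet removal, depth matching, a replicate block and leaving out libraries. Promoter sequences and gene neighbours came from RefSeq tables of build GRCr8, which is not the build of the counts.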

Additional observations from a re-analysis of the deposited data

Results flagged for a closer look

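For 18 of 10206 genes the difference between adipocytes with and without an Asic2 UMI passed edgeR's interaction test between the tissues, and the 7 of them that the text names are given here. Of these, 6 came from the naming rule and the gene lists and Esr1 was named after its values were seen. The interaction on the log2 scale (taPVAT minus BAT) was -1.13 ± 0.16 (SE) for Kcnip1 (adjusted p 4.4e-05), -1.13 ± 0.13 for Ca3 (2.9e-06), -1.07 ± 0.15 for Tshr (4.4e-05) and -1.17 ± 0.25 for Rcan2 (0.026). It was -1.16 ± 0.12 for Esr1 (4.5e-07), 1.68 ± 0.28 for Zfp385d (0.0012) and 1.64 ± 0.35 for Syt1 (0.025). All 7 had the same sign in both taPVAT libraries, which the naming rule had required of Kcnip1, Rcan2, Zfp385d and Syt1. In BAT the log2 ratios of Kcnip1 were 0.16 and -0.66 and those of Ca3 were 0.38 and -0.05. The other 5 genes had the sign opposite to taPVAT in both libraries. Passing the interaction test selects for such differences, so these signs are no further evidence of one. The BAT side rests on 135 and 100 Asic2-positive nuclei, most with 1 UMI, at an Asic2 level not shown to exceed background. It thus sets nuclei with a counted UMI against nuclei without. In BAT replicate 2 Zfp385d and Syt1 were found in 4% and 3% of these positive nuclei, so their ratios there rest on few UMIs. The interaction changed sign with at least 2 UMIs for Kcnip1 (2.18) and Ca3 (1.90), within the largest clusters for Ca3 (0.25) and with gated adipocytes for Zfp385d (-0.77). With at least 2 UMIs, and within the largest clusters, 0 of the 7 passed by edgeR.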

How the results depend on the processing

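The log2 ratio of taPVAT to BAT Asic2 in adipocytes, 5.18, ranged from 4.66 to 5.45 over filters and gating and from 3.88 to 5.85 without 1 library. The difference in detection, with nuclei thinned to 2000 UMIs, was 8.16 percentage points. It ranged from 4.58 with thinning to 1000 UMIs to 11.4 with thinning to 3000 UMIs, and from 3.31 to 13.01 without 1 library. Genes called between tissues, 0 by edgeR, were 55 by DESeq2, 22 with no filter on low counts and 0 to 115 without 1 library (3 without taPVAT replicate 2, 115 and 108 without BAT replicates 1 and 2, where 1 sample is left and is assumed to vary like the other group). With the replicate block they were 327 (2.11%), among them 6 of 11 lipogenic and 4 of 13 voltage-gated channel genes, all higher in taPVAT. The labels tie the numbers to no animal or day, though deviations from the group means correlated at r = 0.655 over 15471 genes between same-numbered libraries. Genes called by Asic2 status, 256, were 38 by DESeq2, 157 with at least 2 Asic2 UMIs, 856 with no depth matching, 132 with 1 negative nucleus per positive, 34 within the largest clusters and 64 there with 1 negative per positive. Of 34 named and list genes 2 reversed over 374 values, Anxa1 (0.069) and Fos (0.087), both in that last setting. Leaving out a taPVAT library left no test of status. Genes called by the interaction, 18, were 6 by DESeq2, 3 with at least 2 UMIs, 47 with no depth matching, 8 with no doublets removed, 205 with gated adipocytes, 3 within the largest clusters, 4 with 1 negative per positive, 4 with both and 13 to 40 without 1 library. The interaction reversed for Kcnip1 (2.18) and Ca3 (1.90) with at least 2 UMIs, for Ca3 (0.25, and 0.14 with 1 negative per positive) within the largest clusters and for Zfp385d (-0.77) with gated adipocytes. The cause was not tested.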

Other observations

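The genes annotated next to Asic2 in GRCr8 were measured in the same adipocyte sums. Tmem98, a membrane protein gene, stood at 1.41 and 1.68 CPM in the taPVAT libraries, against 1.36 and 1.90 CPM in the BAT libraries, so the tissues overlapped. Spaca3 had 0 UMIs in all 4 libraries. Ccl2, a chemokine that draws monocytes, measured 0.275 and 0.514 CPM in taPVAT and 0.137 and 0.877 CPM in BAT, and its neighbour Ccl7 measured 0.0854 and 0.123 CPM against 0.0490 and 0.412 CPM. The BAT libraries held both the lowest and the highest value of these chemokines. The loci LOC134480834 and Rpl35al3 overlap Asic2 in that annotation and have no entry under these names among the counted genes. Whether reads from them were counted as Asic2 was not tested.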
